A study of Mus musculus with 6 samples.

Results

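RNA of 10 genes that encode merlin, the ezrin, radixin and moesin (ERM) proteins and parts of the Hippo pathway was examined in primary osteosarcomas, which are bone-forming tumors, of 6 mice. The genes are *Nf2*, *Ezr*, *Rdx*, *Msn*, *Yap1*, *Wwtr1*, *Lats1*, *Lats2*, *Tead1* and *Ankrd1*. They were taken by symbol from the 39179 Ensembl genes of the count table, and all 10 were found and passed the low-count filter that left 16839 genes for testing. The tumors of mice No244, No316 and No368 were *Cd44*+/+ and those of mice No203, No279 and No364 were *Cd44*-/-. All 6 mice were heterozygous for the *Nf2* allele *Nf2*Δ2 (*Nf2*Δ2/+) on a strain given as C57BL/6 x 129/Sv x FVB, and the labels give neither age nor sex. No tumor with intact *Nf2* alleles was included, so the comparison is between *Cd44* genotypes in *Nf2*-mutant tumors, with whole tumor tissue as the sample. RNA levels are given as normalized counts (CPM), which are counts scaled to a common library size with TMM factors. Wherever 3 values are given for a genotype, the *Cd44*+/+ values follow the order No244, No316, No368 and the *Cd44*-/- values the order No203, No279, No364.

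Merlin, the product of the tumor suppressor gene *Nf2*, and the ERM proteins share a FERM domain that binds membrane proteins, and one of these is the cytoplasmic tail of CD44, the hyaluronan receptor. ERM proteins link such membrane proteins to the actin cortex, whereas merlin acts in contact inhibition of growth. Merlin acts upstream of the Hippo pathway, in which the kinases LATS1 and LATS2 phosphorylate the coactivators YAP and TAZ and keep them out of the nucleus. YAP and TAZ that reach the nucleus bind TEAD factors and raise targets such as *Ankrd1*, *Ccn1* and *Ccn2*.

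The libraries held from 18076388 to 26954142 counts, so that 3 counts, the lowest level taken as detectable, equal 0.0990 to 0.252 CPM. *Cd44*, the deleted gene, was at 137.3, 243.6 and 240.3 CPM in *Cd44*+/+ and lower, at 19.2, 15.7 and 61.8 CPM, in *Cd44*-/- tumors. The counts of No316 and No368 were nearly proportional, with 87.2% of genes within the sampling noise against 15.8% to 23.9% in the other 14 pairs of tumors, and the pair was counted as 1 sample in each mean ± SD (n = 2 for *Cd44*+/+ and n = 3 for *Cd44*-/-). Mitochondrial genes took 55.2% of the counts of No244 and 5.94% to 12.5% in the others, and 10 skeletal muscle markers summed to 23055 CPM in No244 against 15.9 to 775.3 CPM elsewhere. The hepatocyte markers summed to 109793 CPM in No364 and to 40.8 to 147.1 CPM in the other tumors, and none of the 10 was at 0 in any tumor. Of the 10 osteoblast markers, which define the labelled tissue, none was at 0. All but *Col1a1* and *Phex* were lower in both No279 and No364, which are *Cd44*-/-, than in any other tumor. *Col1a1* and *Phex* were lowest in No364, at 764.9 and 1.52 CPM. *Sp7*, a transcription factor of osteoblasts, was at 3.96 CPM in No279 and 0.31 CPM in No364, against 192.0 to 333.2 CPM in the other tumors. No279 and No364 also carried 44.0 and 69.6 CPM of Y-linked RNA and almost no *Xist*, whereas the other 4 tumors had *Xist* at 858.9 to 1241.5 CPM, with 3.28 CPM of Y-linked RNA in No244 and at most 0.042 CPM in the other 3, so sex and genotype were partly confounded. Because No279 and No364 are both *Cd44*-/-, a fit with sex as covariate sets No203 alone against the *Cd44*+/+ tumors. Fewer cells of a type and less RNA per cell cannot be told apart in such bulk samples.

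None of the 10 genes passed an adjusted p of 0.05 for the genotype difference in edgeR's quasi-likelihood test, and neither did any of the 16839 genes tested (0%). At an unadjusted p under 0.05 the test passed 1 of the 10 genes, *Rdx*, where it passed 10.7% of all genes. *Rdx* was also the only one of the 10 whose genotypes did not overlap, with all 3 *Cd44*-/- tumors above all 3 *Cd44*+/+ tumors, and such a separation was met by 19.1% of all genes (by 9.49% with *Cd44*-/- tumors higher). Without No364 it was again *Rdx* alone, 1 of the 10 genes beside 28.7% of all genes. DESeq2 called 0 of the 10 genes at an adjusted p under 0.05, beside 2.33% of all genes, and 0 of the 10 beside 6.15% without its Cook distance filter. At an unadjusted p under 0.05 in edgeR, 0 of the 10 passed with No316 and No368 summed (4.26% of all genes), without No364 (8.82%) and with sex as covariate (3.52%), and 1, *Ankrd1*, without No244 (10.8%). The median absolute log2 fold change of the 10 genes was 0.12 beside 0.58 over all genes tested. Of the 10 fold changes 7 lay above 0, beside 9277 of the 16839 genes tested. Between single tumors the levels differed more, and the highest tumor exceeded the lowest by 1.81-fold for *Yap1* and by up to 11.2-fold for *Ankrd1*.

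**Figure D1:**
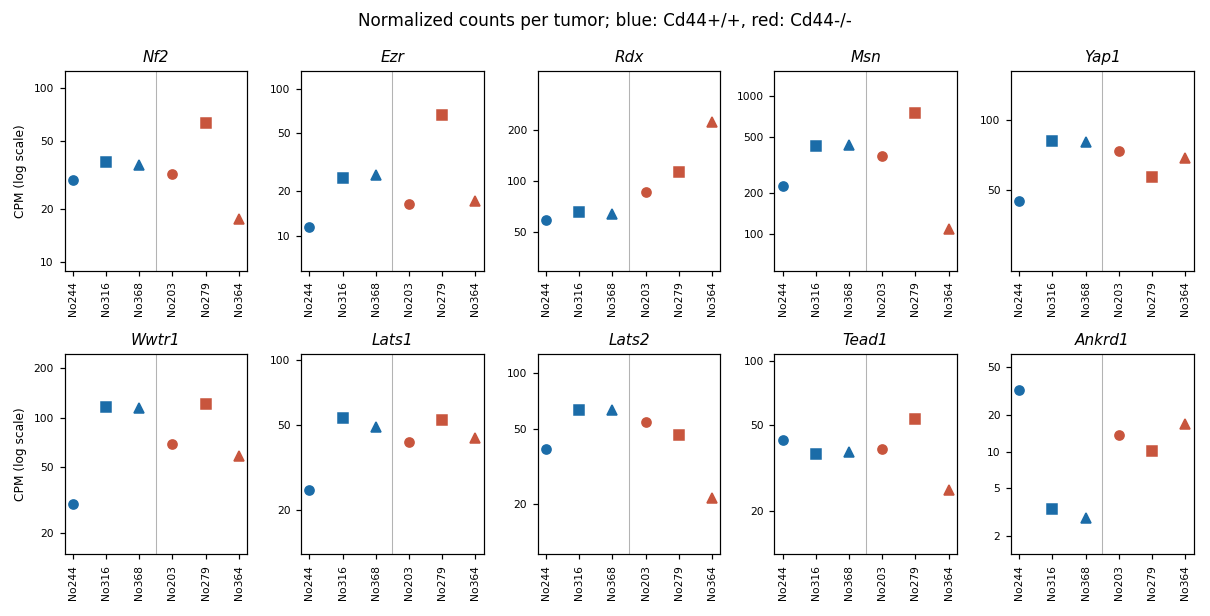
TMM-normalized counts (CPM, log scale) of the 10 genes in each tumor, one point per tumor, with *Cd44*+/+ tumors in blue and *Cd44*-/- tumors in red. The *Rdx* points are the only ones that do not overlap between genotypes, No279 is highest for *Nf2*, *Ezr* and *Msn*, and No244 stands above the others for *Ankrd1*.

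*Nf2* (ENSMUSG00000009073, chr11:4765845-4849536, minus strand, GRCm38) encodes merlin and was expressed in all 6 tumors. Its level was 29.6, 37.7 and 36.2 CPM in *Cd44*+/+ tumors, and it was 32.0, 63.3 and 17.7 CPM in *Cd44*-/- tumors. Both the highest tumor, No279, and the lowest, No364, were *Cd44*-/-, and the genotypes overlapped. The means were 33.3 ± 5.22 CPM in *Cd44*+/+ (SD, n = 2) and 37.6 ± 23.3 CPM in *Cd44*-/- tumors (SD, n = 3). All fold changes were fitted over the 6 libraries, with No316 and No368 kept apart unless stated. For *Nf2* the log2 fold change was 0.13 (SE 0.49, edgeR adjusted p = 0.934). Leaving out 1 tumor at a time moved it from -0.47 without No279 to 0.47 without No364, so its sign rested on single tumors.

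The name of the *Nf2*Δ2 allele refers to exon 2, which codes for part of the FERM domain, and its sequence is shown because it is the stretch in which the mutant and the normal allele would differ. In the *Nf2* transcript of 17 exons, exon 2 lies at chr11:4820368-4820493 on the minus strand of GRCm38 and is 126 bases long, a multiple of 3, all of it coding.
*Nf2* exon 2: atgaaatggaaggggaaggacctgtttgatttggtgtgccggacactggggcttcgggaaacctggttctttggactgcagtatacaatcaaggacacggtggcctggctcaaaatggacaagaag
It makes up 1.85% of the 6825 bases of *Nf2* exon sequence. The counts are summed over the gene, so reads of the 2 alleles cannot be told apart, and the *Nf2* levels above say nothing of how much RNA held exon 2. The study describes osteosarcoma cells cultured from such tumors as negative for *Nf2* and calls this characteristic of the tumors. Whether the tumors kept the normal allele cannot be read from these counts, nor can merlin protein.

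The ERM genes *Msn*, *Rdx* and *Ezr* encode the crosslinkers moesin, radixin and ezrin. *Ezr* (ENSMUSG00000052397, chr17:6738041-6782784, minus strand) was at 11.5, 24.5 and 25.7 CPM in *Cd44*+/+ tumors, and at 16.3, 66.3 and 17.2 CPM in *Cd44*-/- tumors. No279 alone was high, while the other *Cd44*-/- tumors lay within the *Cd44*+/+ range. The log2 fold change of 0.69 (SE 0.66, edgeR adjusted p = 0.697) fell to -0.30 without No279. One exon of *Ezr* overlaps *Sytl3*, which lies on the other strand, although no run of 51 bases, the read length, was common to both.

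*Rdx* (ENSMUSG00000032050, chr9:52047173-52088735, plus strand) was at 59.2, 65.9 and 63.4 CPM in *Cd44*+/+ tumors, and at 86.4, 113.0 and 221.5 CPM in *Cd44*-/- tumors. The *Cd44*+/+ tumors were close together and each *Cd44*-/- tumor was higher, with No364 the highest. The means were 61.9 ± 3.88 CPM (SD, n = 2) and 140.3 ± 71.6 CPM (SD, n = 3). Fitted over the 6 libraries, with No316 and No368 kept apart, the log2 fold change was 1.16 (SE 0.44, edgeR unadjusted p = 0.0357, adjusted p = 0.452). Radixin is known as the main ERM protein of hepatocytes, and No364 was the tumor with the hepatocyte signal. With the mean log2 level of the hepatocyte markers as covariate the log2 fold change was 0.64 (edgeR unadjusted p = 0.0961). That mean was 12.2 in No364 and 0.91 to 2.28 in the other tumors, so the covariate mainly sets No364 apart. This fit is therefore no separate check from the one without No364. The part of hepatocyte RNA in the *Rdx* level was not tested. Without No364 the genotypes still did not overlap, the log2 fold change was 0.67 and the edgeR unadjusted p was 0.0628. With No316 and No368 summed to 1 sample the fold change was again 1.16 with an edgeR unadjusted p of 0.107. Over the 4 tumors with *Xist* RNA, of which No203 is the lone *Cd44*-/- tumor, it was 0.46.

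*Msn* (ENSMUSG00000031207, chrX:96096042-96168552, plus strand) was at 222.7, 431.9 and 441.7 CPM in *Cd44*+/+ tumors, and at 365.0, 754.7 and 109.3 CPM in *Cd44*-/- tumors. As for *Nf2*, the highest and the lowest tumor were both *Cd44*-/-. The log2 fold change was 0.16 (SE 0.75, edgeR adjusted p = 0.944) and ran from -0.62 without No279 to 0.62 without No364.

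Per kilobase of exon, *Msn* was the highest of the 10 genes, with a median of 57.7 CPM per kb over the 5 samples (range 17.3 to 119.3). *Rdx* followed with 18.6 CPM per kb (12.8 to 47.8), and *Ezr* was lower at 5.22 CPM per kb (3.50 to 20.1). Between them lay *Wwtr1* at 14.5, *Yap1* at 7.44, *Lats2* at 6.70 and *Lats1* at 5.93 CPM per kb, and below *Ezr* came *Ankrd1* at 4.78, *Nf2* at 4.69 and *Tead1* at 2.86 CPM per kb. The ranges over the samples overlapped between every gene and the next in this order. Of the summed ERM level per kilobase, *Msn* took 68.4% to 76.5% in 5 tumors and 24.6% in No364. The share of *Rdx* was 14.9% to 24.8% in those 5 tumors and 68.0% in No364. *Ezr* never exceeded 12.3%, its share in No279. The order moesin, radixin, ezrin therefore held in 5 of 6 tumors for these RNA levels per length, and in No364 *Rdx* was above *Msn*.

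**Figure D2:**
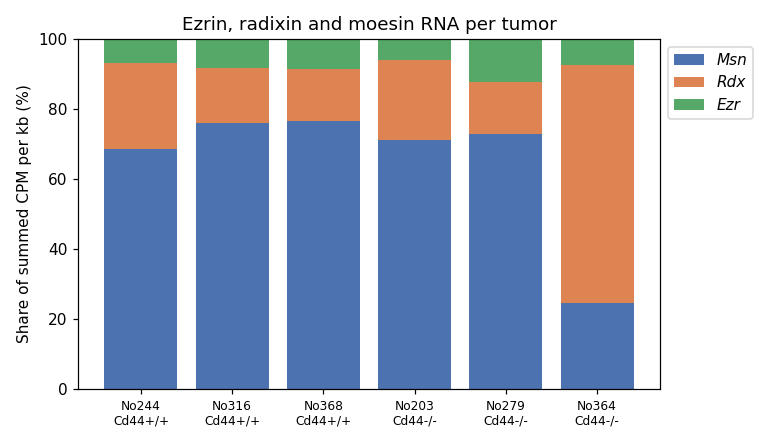
Share (%) of *Msn*, *Rdx* and *Ezr* in their summed level, in CPM per kilobase of exon, as 1 stacked bar for each tumor from 0 to 100%. *Msn* takes the largest share in 5 tumors and *Rdx* takes 68.0% in the *Cd44*-/- tumor No364.

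Within a library the ratio of a pair of genes needs no scaling. The count ratio of *Rdx* to *Msn* was 0.266, 0.153 and 0.144 in *Cd44*+/+ tumors, whereas it was 0.237, 0.150 and 2.03 in *Cd44*-/- tumors. The genotypes overlapped, and the log2 difference of 1.21 gave an exact two-sided permutation p of 0.6 (adjusted p = 0.75 over 5 ratios). The ratio of *Ezr* to *Msn* differed by 0.62 on the log2 scale (exact permutation p = 0.4, adjusted p = 0.75) and that of *Nf2* to *Msn* by 0.11 (exact permutation p = 0.6, adjusted p = 0.75). With 3 tumors against 3 this test cannot give a p below 0.1, and both the test and these differences count No316 and No368 as 2 tumors. With the pair summed the *Nf2* to *Msn* difference was -0.0032.

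*Yap1* (ENSMUSG00000053110, chr9:7931999-8004596, minus strand) encodes YAP and *Wwtr1* (ENSMUSG00000027803, chr3:57455649-57575910, minus strand) its paralog TAZ. *Yap1* was at 45.0, 81.3 and 80.8 CPM in *Cd44*+/+ tumors, and at 73.5, 56.9 and 68.9 CPM in *Cd44*-/- tumors. It was the steadiest of the 10 genes, and its SD over the 5 samples (0.34 on the log2 scale) was undercut by 8.20% of the genes tested. *Wwtr1* was at 29.8, 116.0 and 115.1 CPM in *Cd44*+/+ tumors, and at 69.5, 122.2 and 58.9 CPM in *Cd44*-/- tumors. Both genes were lowest in No244, and their genotypes overlapped. Their log2 fold changes were -0.06 for *Yap1* (SE 0.36, edgeR adjusted p = 0.960) and -0.06 for *Wwtr1* (SE 0.59, edgeR adjusted p = 0.976). The count ratio of *Yap1* to *Wwtr1* lay between 0.465 in No279 and 1.51 in No244 and differed by -0.12 on the log2 scale between genotypes (exact permutation p = 1, adjusted p = 1), or by -0.31 with No316 and No368 summed.

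*Lats1* (ENSMUSG00000040021, chr10:7681214-7716460, plus strand) and *Lats2* (ENSMUSG00000021959, chr14:57689662-57758388, minus strand) encode the kinases that inhibit YAP and TAZ, and *Lats2* is itself a YAP target. *Lats1* was at 24.8, 53.5 and 48.6 CPM in *Cd44*+/+ tumors, and at 41.3, 52.5 and 43.3 CPM in *Cd44*-/- tumors. Apart from No244 its levels were close together, and the log2 fold change was 0.11 (SE 0.38, edgeR adjusted p = 0.922). *Lats2* was at 39.2, 63.5 and 63.4 CPM in *Cd44*+/+ tumors, and at 54.6, 46.7 and 21.5 CPM in *Cd44*-/- tumors. No364 was the lowest tumor, and the genotypes overlapped. The log2 fold change was -0.44 (SE 0.44, edgeR adjusted p = 0.716) and stayed below 0 with any 1 tumor left out, from -0.74 to -0.12. It was close to 0 with sex as covariate (-0.019) and over the 4 tumors with *Xist* RNA (-0.0212). These are not separate checks, because both fits set No203 alone against the *Cd44*+/+ tumors. The counts of *Lats2* are uncertain, because 41.2% of the 51-base runs of its transcripts also occur on the same strand in the overlapping gene model *Gm49361* of GENCODE M21, a later annotation than the one used for counting. The count ratio of *Lats1* to *Lats2* was 2.02 in No364 and 0.633 to 1.12 in the other tumors, a log2 difference of 0.69 between genotypes (exact permutation p = 0.3, adjusted p = 0.75).

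*Tead1* (ENSMUSG00000055320, chr7:112679318-112906807, plus strand) encodes a DNA-binding partner of YAP and TAZ. Its levels were 42.5, 36.7 and 37.5 CPM in *Cd44*+/+ tumors, and 38.8, 53.7 and 25.1 CPM in *Cd44*-/- tumors. The *Cd44*+/+ tumors lay inside the *Cd44*-/- range, and the log2 fold change was 0.01 (SE 0.36, edgeR adjusted p = 0.991), with a sign that turned under many settings.

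*Ankrd1* (ENSMUSG00000024803, chr19:36111961-36120099, minus strand) encodes a cardiac and skeletal muscle ankyrin repeat protein and is widely used as a readout of YAP and TAZ. It was at 32.1, 3.34 and 2.85 CPM in *Cd44*+/+ tumors, and at 13.8, 10.2 and 16.8 CPM in *Cd44*-/- tumors. The *Cd44*-/- tumors lay between No244 above and the pair No316 and No368 below. The means were 17.6 ± 20.5 CPM (SD, n = 2) and 13.6 ± 3.30 CPM (SD, n = 3), and the fitted log2 fold change over the 6 libraries was 0.10 (SE 0.96, edgeR adjusted p = 0.976). Without No244 the fold change was 2.12, but the *Cd44*+/+ side was then No316 and No368 alone, the pair counted as 1 sample in the means. With No244 kept and No316 and No368 summed, the fold change was -0.36. No244 was also the tumor with the highest skeletal muscle sum, and No316 and No368 were not the lowest in muscle RNA, with 213.4 and 208.6 CPM against 15.9 CPM in No364. The part of muscle RNA in the *Ankrd1* level was not tested.

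**Figure D3:**
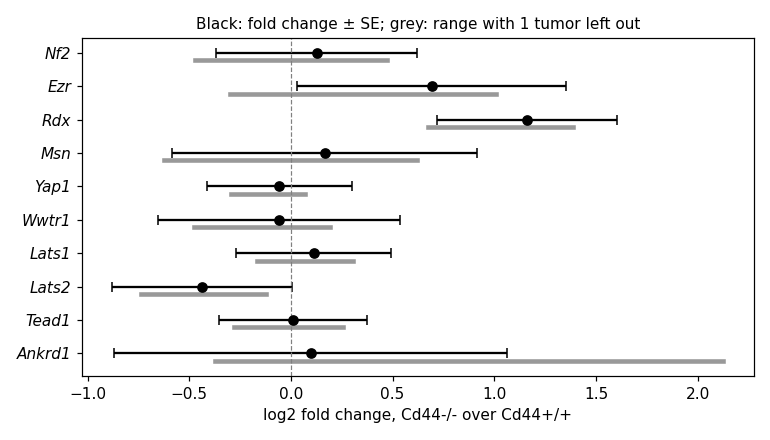
Log2 fold change of *Cd44*-/- over *Cd44*+/+ for the 10 genes in edgeR, with its standard error in black, and the range of the fold change when each tumor is left out in turn in grey. *Rdx* stays above 0 and *Lats2* below 0, whereas the range of the other 8 genes crosses 0, and that of *Ankrd1* reaches 2.12.

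TEAD factors bind DNA at GGAATG, read as CATTCC on the other strand, and the cleaved intracellular domain of CD44 was of interest to the study through the elements CCTGCG (reverse CGCAGG) and TGACTCA (reverse TGAGTCA). These letters were searched for on both strands of the RefSeq promoters of GRCm38.p6, from 250 bases before to 50 bases after each start, and 9 of the 10 genes had an entry, *Tead1* being the exception. The TEAD letters were in 4 of the 9 genes, *Yap1*, *Wwtr1*, *Lats2* and *Ankrd1*, and in 16.5% of all genes with an entry. CCTGCG was in 3 of the 9 genes, *Ezr*, *Yap1* and *Lats2*, and in 19.3% of all genes, and TGACTCA in 1 of the 9, *Ezr*, and in 5.94% of all genes. *Ezr* was the only one of the 9 with both CD44-linked elements in the stretch searched, and *Rdx* held none of the 3 there. The study searched a longer stretch before the start, in the genes *Abcb1a* and *Abcb1b*. The windows below are the minus strand at chr19:36119950-36120064 (*Ankrd1*), chr9:8004702-8004751 (*Yap1*), chr3:57576011-57576060 (*Wwtr1*) and chr17:6782801-6782870 (*Ezr*). They are shown because they carry these letters, which are in capitals, with the TEAD letters marked in the first 3 and CCTGCG and TGACTCA in *Ezr*. The *Yap1* window also holds CGCAGG, which is left in lower case.
*Ankrd1*: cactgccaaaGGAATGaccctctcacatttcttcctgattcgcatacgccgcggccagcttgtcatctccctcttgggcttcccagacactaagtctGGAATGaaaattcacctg
*Yap1*: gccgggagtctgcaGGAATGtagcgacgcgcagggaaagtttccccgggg
*Wwtr1*: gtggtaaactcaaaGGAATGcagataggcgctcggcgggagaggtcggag
*Ezr*: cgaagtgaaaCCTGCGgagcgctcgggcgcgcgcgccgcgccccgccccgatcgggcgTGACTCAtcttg
The 4 genes differ widely in spread, *Yap1* being the steadiest and *Ankrd1* the most variable of the 10. A match is a description of the letters and no sign of binding.

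The genes closest in pattern were found by the root mean square distance of centred log2 CPM over the 5 samples, as a description. For *Nf2* these were *Dip2a* (0.0785), *Tcof1* (0.0907) and *Irak1bp1* (0.102), beside a median distance of 0.924 over all genes tested. For *Ezr* they were *Smyd3* (0.0731), *Gm11425* (0.115) and *Tctn2* (0.151), with a median of 1.11, although *Gm11425* was at 73.7 CPM in No316 and 288.3 CPM in No368 and resembles *Ezr* only through their mean. For *Ankrd1* the distances were larger, 0.236 for *Pbx4*, 0.239 for *Naa80* and 0.239 for *Tssk6*, with a median of 1.36.

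The partners and targets of these proteins were taken as 5 lists with 91 genes, *Ankrd1* and *Lats2* among them, of which 88 were tested. edgeR called none at an adjusted p under 0.05, whereas DESeq2 called 1, *Ppp1r14a*, beside 2.33% of all genes. Without its Cook distance filter DESeq2 called 2, *Ppp1r14a* and *Wwc1*, beside 6.15% of all genes. In edgeR 10 genes passed at an unadjusted p under 0.05, 6 higher and 4 lower in *Cd44*-/- tumors, beside 6.44% of all genes higher and 4.31% lower. The same shares over all genes stand beside the counts given for each list below. With No316 and No368 summed to 1 sample only *Ppp1r14a* and *Wwc1* passed (2 of the list genes, beside 4.26% of all genes). The other 8 of the 10 genes then had unadjusted p-values from 0.0529 to 0.136 in edgeR. With sex as covariate 1 list gene passed, beside 3.52% of all genes. The genotypes did not overlap for 13 of the 88 genes, or 14.8%, under the 19.1% over all genes. The median log2 fold change of the 88 genes was 0.14, close to the 0.11 over all genes tested.

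**Figure D4:**
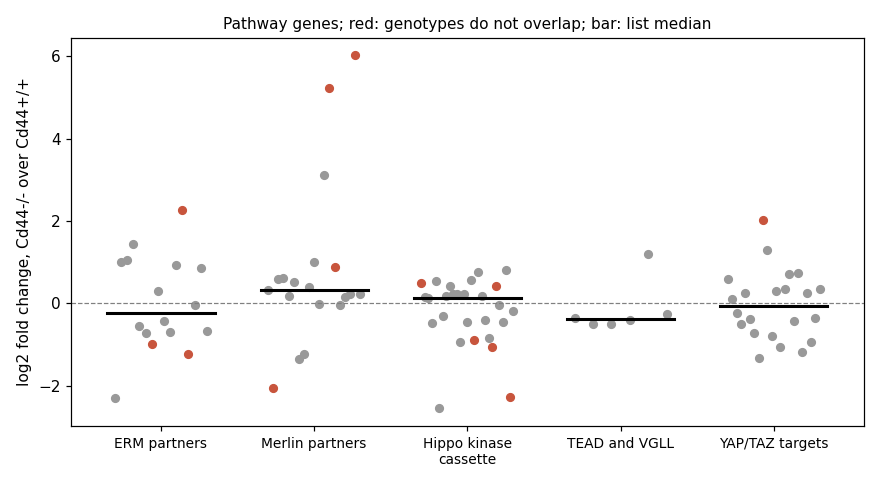
Log2 fold change of *Cd44*-/- over *Cd44*+/+ in edgeR for each tested gene of the 5 lists, one point per gene, with a bar at each list's median. Genes whose genotypes do not overlap are red, and the list medians lie between -0.38 for TEAD and VGLL genes and 0.32 for merlin partners.

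The list of ERM partners holds scaffolds, ERM kinases, adhesion molecules with an ERM-binding tail and ankyrins. Of its 17 genes 16 were tested, 2 were higher and 0 lower at an unadjusted p under 0.05, and the median log2 fold change was -0.24. The 2 genes were *Slc9a3r1* and the adhesion molecule *Icam1*, whose genotypes overlapped and which is named after its values were seen. *Slc9a3r1*, which encodes the ERM-binding scaffold NHERF1, was at 10.6, 11.4 and 11.3 CPM in *Cd44*+/+ tumors, and at 17.5, 12.1 and 131.1 CPM in *Cd44*-/- tumors. Its log2 fold change of 2.27 (SE 0.93, edgeR adjusted p = 0.460) was 0.42 without No364, the tumor with the hepatocyte signal.

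Merlin partners include the kinases PAK and PKA, which phosphorylate merlin, and scaffolds that link it to LATS. Of 20 genes 19 were tested, 3 were higher and 1 lower at an unadjusted p under 0.05, and the median log2 fold change was 0.32. *Prkaca*, the catalytic subunit of PKA, was at 26.0, 26.9 and 29.0 CPM in *Cd44*+/+ tumors, and at 43.9, 53.1 and 53.2 CPM in *Cd44*-/- tumors. All *Cd44*-/- tumors were higher than the highest *Cd44*+/+ tumor, and the log2 fold change of 0.87 (SE 0.28, edgeR adjusted p = 0.452) was 0.83 without No364.

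*Ppp1r14a* encodes CPI-17, an inhibitor of the myosin phosphatase that dephosphorylates merlin. It had 1, 3 and 1 counts in *Cd44*+/+ tumors, but 124, 23 and 69 counts in *Cd44*-/- tumors. The *Cd44*+/+ tumors were at or under the detection limit of 3 counts, and each *Cd44*-/- tumor was above it. The ratio of summed counts, each divided by the summed TMM-scaled library sizes, was 37.3 (95% exact interval 15.8 to 116.2, counting error only). The edgeR adjusted p was 0.452 and that of DESeq2 0.000885, so the call depended on the test.

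*Wwc1*, which encodes the merlin- and LATS-binding scaffold KIBRA, was at 0.67, 0.49 and 0.55 CPM in *Cd44*+/+ tumors, and at 4.20, 4.92 and 101.6 CPM in *Cd44*-/- tumors. The genotypes did not overlap, and No364 was far above the other *Cd44*-/- tumors. The log2 fold change of 6.02 (SE 1.50, edgeR adjusted p = 0.452) was 3.01 without No364. DESeq2 gave no adjusted p with its Cook distance filter and 0.00016 without that filter.

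*Amotl1*, which encodes an angiomotin that binds merlin and YAP, went the other way, with 198.8, 184.0 and 174.9 CPM in *Cd44*+/+ tumors, but 70.3, 58.2 and 6.18 CPM in *Cd44*-/- tumors. Every *Cd44*-/- tumor was below every *Cd44*+/+ tumor. This gave a log2 fold change of -2.05 (SE 0.82, edgeR adjusted p = 0.457), and -1.53 without No364.

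The Hippo kinase cassette and its scaffolds were represented by 27 genes, all tested, of which 0 were higher and 3 lower at an unadjusted p under 0.05, with a median log2 fold change of 0.12. The 3 genes were *Stk38*, *Strn3* and the atypical cadherin *Fat4*, whose genotypes overlapped and which is named after its values were seen. *Stk38*, which encodes an NDR kinase related to LATS, was at 141.8, 121.6 and 119.9 CPM in *Cd44*+/+ tumors, and at 90.2, 59.8 and 57.1 CPM in *Cd44*-/- tumors. *Strn3*, a striatin of the phosphatase complex that counters the Hippo kinases, was at 118.0, 114.9 and 115.7 CPM in *Cd44*+/+ tumors, and at 68.0, 56.9 and 42.4 CPM in *Cd44*-/- tumors. For both genes the *Cd44*-/- tumors lay below all *Cd44*+/+ tumors. The log2 fold changes were -0.89 for *Stk38* (SE 0.35, edgeR adjusted p = 0.452) and -1.06 for *Strn3* (SE 0.33, edgeR adjusted p = 0.452), and -0.76 and -0.89 without No364.

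**Figure D5:**
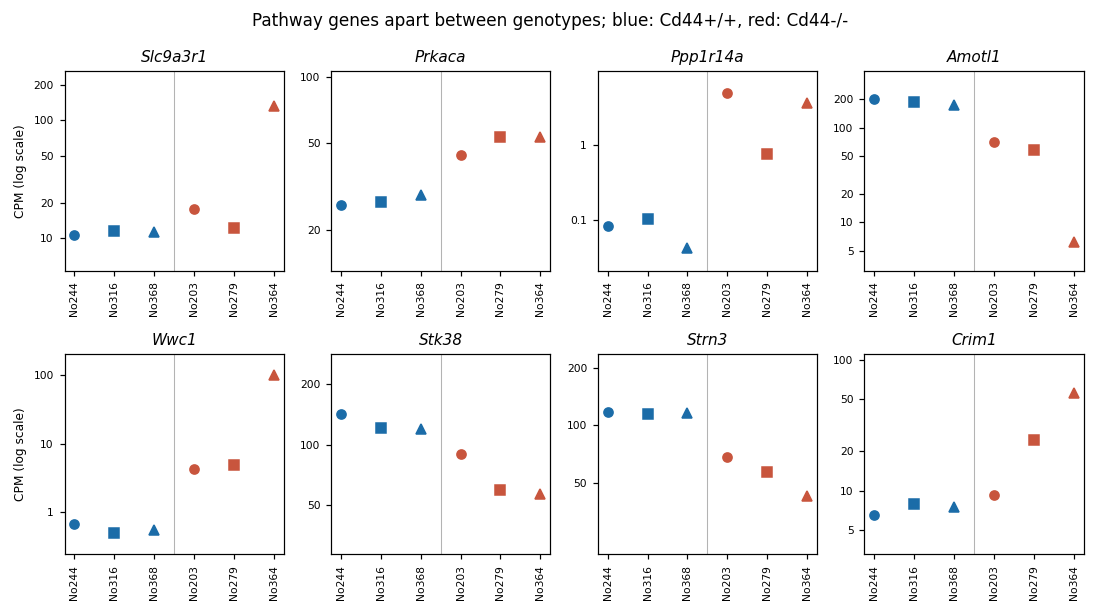
CPM (log scale) per tumor of the 8 list genes whose genotypes did not overlap and whose unadjusted p was under 0.05, with *Cd44*+/+ tumors in blue and *Cd44*-/- tumors in red. *Slc9a3r1*, *Wwc1* and *Crim1* are highest and *Amotl1* is lowest in No364, whereas *Prkaca*, *Stk38* and *Strn3* differ by smaller steps in all 3 *Cd44*-/- tumors.

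None of the 6 tested TEAD and VGLL genes passed at an unadjusted p under 0.05. *Tead2* was at 34.6, 29.9 and 26.8 CPM in *Cd44*+/+ tumors, and at 50.5, 15.7 and 5.34 CPM in *Cd44*-/- tumors. Its highest and lowest tumor were both *Cd44*-/-. *Tead3* ranged from 10.4 to 21.4 CPM and *Tead4* from 2.62 to 9.57 CPM over the tumors, with both lowest in No364. *Vgll4*, a competitor of YAP for TEAD, was at 4.71 CPM in No244, 17.3 in No203 and 17.6 in No364, and at 52.1 to 57.9 CPM in the other 3 tumors. *Vgll2* lay between 0.13 and 6.72 CPM, *Vgll3* between 0.66 and 3.83 CPM, and *Vgll1* had 0 counts in every tumor.

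A published signature of 22 YAP and TAZ targets, which includes *Ankrd1* and *Lats2*, was tested whole, and 1 gene was higher and 0 lower at an unadjusted p under 0.05, with a median log2 fold change of -0.07. That gene was *Crim1*, a transmembrane regulator of BMP signaling, at 6.55, 7.89 and 7.43 CPM in *Cd44*+/+ tumors, and at 9.24, 24.3 and 55.2 CPM in *Cd44*-/- tumors. *Crim1* had a log2 fold change of 2.02 (SE 0.66, edgeR adjusted p = 0.452), and 1.21 without No364. For the 3 targets with the highest mean CPM, which is not corrected for length, the genotypes overlapped. *Ccn2*, a matricellular growth factor, was at 709.9, 986.0 and 968.8 CPM in *Cd44*+/+ tumors, and at 247.5, 721.8 and 87.3 CPM in *Cd44*-/- tumors, a log2 fold change of -1.33 (SE 0.82, edgeR adjusted p = 0.551). *Ccn1*, a related matricellular protein, was at 353.3, 558.9 and 558.9 CPM in the *Cd44*+/+ and at 616.3, 220.2 and 51.2 CPM in the *Cd44*-/- tumors in the same order, with a log2 fold change of -0.73 (SE 0.86, edgeR adjusted p = 0.756). *Igfbp3*, an IGF-binding protein, was at 116.5, 419.9 and 419.2 CPM and at 170.5, 1281.2 and 114.9 CPM, with a log2 fold change of 0.71 (SE 1.04, edgeR adjusted p = 0.807).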

How the data were processed

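For each of the 6 tumors, the file that the authors deposited holds 1 column of raw counts by Ensembl gene, without normalization. Per the labels and the methods of the study, RNA was isolated with RNeasy columns, stranded mRNA libraries were read from one end for 51 cycles with lanes merged in the counts, and reads were aligned to GRCm38 with HISAT2 2.0.2 and counted with featureCounts of Subread 2.0.0. The strand setting and the treatment of multi-mapping reads are not given in the sources used here, so genes that overlap another are uncertain. The extraction label names cell lines and the methods name tumor tissue.

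Symbols were found for 37607 of 39179 genes in GENCODE M21, which also gave coordinates and exon lengths. The genotype comparison was run in edgeR 4.0.16 under R 4.3.3 (TMM, filterByExpr, quasi-likelihood F test, Benjamini-Hochberg) over all 6 libraries, with genotype as the only factor. The SE was taken as the absolute log2 fold change over the root of the F statistic. Each library is 1 mouse by its number, and p-values measure the spread between these libraries only. Pairs of libraries were set against binomial noise (95% range) on genes that together had 20 counts or more. Intervals cover counting error only. Count ratios took 0.5 added to each count, and 2-sided exact permutation tests. Alternatives were other scalings and filters, DESeq2 1.42.0, limma-voom (limma 3.58.1), covariates, No316 and No368 summed, and single tumors left out. After seeing the data, the fit on the 4 tumors with *Xist* RNA and the overlap count without No364 were added.

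The genes and lists were chosen with earlier results of these data known. Named were the 10 genes, list genes that did not overlap and had an unadjusted p under 0.05, the 3 targets with the highest mean CPM, all TEAD and VGLL genes, and the 3 genes nearest in pattern to *Nf2*, *Ezr* and *Ankrd1*. One ERM partner, *Icam3*, was not matched, and *Lin28b* and *Vgll1* had 0 counts throughout. The edgeR fit was tested on simulated counts with 200 changed genes, at an adjusted p under 0.05. At a dispersion of 0.02 it recovered 200 of 200 genes changed 4-fold. At the dispersion of the data (0.501) it recovered 0 of 200 changed 4-fold, 7 changed 8-fold and 152 changed 16-fold. Each simulation gave all genes the same dispersion and treated the libraries as independent. The absence of calls in edgeR alone therefore cannot exclude changes of 4-fold in genes with a dispersion of 0.501. The 10 genes differed in this respect, with an SE of the log2 fold change from 0.36 for *Yap1* and *Tead1* to 0.96 for *Ankrd1*.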

Additional observations from a re-analysis of the deposited data

How the results depend on the processing

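Of 180 fold changes of the 10 genes under 18 alternatives, 47 had the opposite sign to the value reported. None of the 47 was for *Rdx* or *Lats2*, and no alternative gave an adjusted p under 0.214. The alternatives are not independent, so the 47 count some reversals more than once. DESeq2 gave the same fold changes with and without its Cook distance filter. Sex as covariate and the fit over the 4 tumors with *Xist* RNA both set No203 alone against the *Cd44*+/+ tumors. Summing No316 and No368 and leaving out either gave similar values. *Lats2* came close to 0, at -0.019 with sex as covariate and -0.0394 with the hepatocyte score as covariate. The cause of these changes was not tested. At an unadjusted p under 0.05, counts of all genes, of the 10 genes and of the list genes were 1197, 0 and 5 with library size alone, 761, 0 and 2 with No316 and No368 summed, and 592, 0 and 1 with sex as covariate. The last 2 counts were 0 and 5 over the 4 tumors with *Xist* RNA, and 0 of the 10 genes passed with the hepatocyte score as covariate. DESeq2 called 419 genes at an adjusted p under 0.05, 1 of them in the lists, and without the Cook distance filter 1195 and 2, with 3646 at an unadjusted p under 0.05.

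The log2 fold change of *Tead1* was -0.011 with the size factors of DESeq2, -0.0089 with mitochondrial genes left out, and -0.0022 in DESeq2 with or without the Cook distance filter. That of *Lats1* was -0.0539 with library size alone. Under limma-voom *Nf2* was at -0.0521, *Msn* at -0.18, *Wwtr1* at 0.11 and *Tead1* at -0.0362. With the pair summed *Yap1* was at 0.0565, *Wwtr1* at 0.18, *Tead1* at -0.0278, *Ankrd1* at -0.36 and the *Nf2* to *Msn* ratio at -0.0032. The hepatocyte score moved *Wwtr1* to 0.26 and *Ankrd1* to -0.20. With sex as covariate *Nf2* was at -0.11, *Ezr* at -0.34, *Msn* at -0.0017, *Yap1* at 0.0901, *Lats1* at -0.0346 and *Tead1* at -0.0040, and over the 4 tumors with *Xist* RNA at -0.11, -0.34, -0.0049, 0.0872, -0.0385 and -0.0009.

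With 1 tumor left out, counts at an unadjusted p under 0.05 ran from 763 to 3085 for all genes (763 without No316, 784 without No368, 3085 without No203), from 0 to 1 for the 10 genes (0 without No316, No368 or No364) and from 2 to 15 for the list genes. Fold changes ran from -0.47 to 0.47 for *Nf2*, -0.30 to 1.01 for *Ezr*, -0.62 to 0.62 for *Msn*, -0.30 to 0.0671 for *Yap1*, -0.48 to 0.19 for *Wwtr1*, -0.17 to 0.31 for *Lats1*, -0.28 to 0.26 for *Tead1* and -0.37 to 2.12 for *Ankrd1*. Ratios changed sign for *Yap1* to *Wwtr1* (up to 0.30) and *Nf2* to *Msn* (-0.20 to 0.3249). The share of higher genes among those with an unadjusted p under 0.05 was 59.9%, and 38.4% under limma-voom, 42.6% with the pair summed and 49.7% with sex as covariate. No paired analysis was possible because the mouse numbers are not shared between genotypes. Detection was limited to 3 counts, and by the spread between tumors (biological coefficient of variation 0.708).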

Other observations

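Markers of other cell types varied between the tumors in which merlin, ERM and Hippo genes were measured. Osteoclast markers, led by *Acp5* and *Mmp9*, summed to 12986 CPM in No244, 11369 in No203 and 9297 in No279, and to 765 to 782 CPM in No316, No368 and No364. Osteoblast markers summed to 84807 CPM in No203, 33885 to 52931 CPM in the *Cd44*+/+ tumors, 22533 in No279 and 3691 in No364. Epithelial markers, led by the keratins *Krt8* and *Krt18*, summed to 2075 CPM in No364, 36.5 in No279 and 2.71 to 5.43 in the other tumors. Endothelial markers lay between 122.6 and 440.4 CPM, leukocyte markers between 320.5 and 992.1 CPM, and both sums were lowest in No364. Chondrocyte markers lay between 26.7 and 181.1 CPM, and Schwann cell markers between 3.79 CPM in No316 and 146.7 CPM in No364, where *Erbb3* alone was at 142.2 CPM. A list of 8 cardiac and slow muscle genes often found with *Ankrd1* summed to 11.3 to 28.3 CPM, highest in No203, while the skeletal muscle markers summed to 23055 CPM in No244.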
